A study of Oryza sativa with 12 samples.

Results

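The drought response of wild-type rice leaves was read from 6 of the 12 Affymetrix arrays of the series, chosen by their titles: 3 arrays of droughted wild-type (WT) leaves and 3 arrays of well-watered WT leaves. WT was Oryza sativa ssp. Japonica, cultivar Dongjin. The drought group was harvested after 15 days without water, at a soil moisture of 8.5%. The control group was harvested at day 0, at a soil moisture of 47.3%. The leaf taken was the youngest fully expanded one of plants labelled 2.5 months old, and 10 weeks old at the start. The plants had grown 4 to a pot in paddy soil, at 36 °C by day and 28 °C by night. The light period was 16 hours and the dark period 8 hours. Each pot also held plants of the T-DNA insertion mutant osnox2, whose 6 arrays (3 drought, 3 control) entered the estimate of the spread and are set beside the WT values at the end. The drought leaves were harvested 15 days after the control leaves, so drought, plant age and the day of harvest cannot be told apart. The arrays are titled as biological replicates, but the labels do not say which plants or pots they came from, so the p-values measure only the spread between these samples.

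When soil dries, rice leaves accumulate the hormone abscisic acid (ABA), which closes the stomata and, through bZIP transcription factors, switches on genes of LEA proteins and dehydrins, hydrophilic proteins that protect cell contents during water loss. Reduced transpiration also warms the leaf and reduced carbon fixation leaves excess light energy, and heat shock proteins and enzymes that remove reactive oxygen species are known to be made under such conditions. Heat stress factors are a family of transcription factors, and only some of them drive heat shock genes. Copper, zinc and iron are cofactors of many of these enzymes and of photosynthesis.

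The values are log2 signals, and the median log2 signal of an array lay between 5.08 and 5.43, so values near or under that level are dim. Differences are drought minus control on the log2 scale ± SE, and a difference passed the test at an adjusted p under 0.05. The leaf label was borne out by 10 photosynthesis genes used as leaf markers, whose summed linear signal was 145007 to 161233 on the drought arrays and 127169 to 210357 on the control arrays. Marker genes of other tissues had far lower summed signals. The 10 seed storage markers summed to 1158 to 1366 on the drought arrays and 1430 to 2056 on the control arrays, and 6 of them were below the array median on all 6 arrays. The 9 anther and pollen markers (770 to 935 on the drought arrays, 821 to 1095 on the control arrays), 7 shoot meristem markers (490 to 915 and, on the control arrays, 761 to 899) and 2 root markers (84 to 124 and, on the control arrays, 116 to 162) had lower sums still. Of these, 5 anther, 4 meristem and 1 root marker were below the array median on all 6 arrays, and the part of these cells in the results was not tested. In leaf RNA, fewer cells of a type and less RNA per cell cannot be told apart.

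Control replicate 1 stood apart from the other WT arrays. It correlated with them at 0.873 to 0.894 over the probe sets kept, against 0.930 to 0.959 among the other 5 WT arrays. The clock gene LHY, a transcription factor that peaks around dawn, read 8.63, 8.43 and 8.13 on the drought arrays and 13.79, 7.43 and 7.31 on the control arrays. PCL1, a clock component of the evening, read 14.50, 14.38 and 14.60 on the drought arrays and 6.08, 14.68 and 14.99 on the control arrays. PRR1, a pseudo-response regulator of the evening, read 12.26, 12.47 and 12.39 on the drought arrays and 9.34, 12.45 and 12.54 on the control arrays. On these 3 genes control replicate 1 lay far outside the other 5 arrays, while the drought arrays and control replicates 2 and 3 were within 2 log2 units of each other. GI, PRR37, PRR73 and PRR95 spanned less than 1 log2 unit over all 6 arrays. Other gene lists moved with the clock genes on this array. Relative to the mean of control replicates 2 and 3, control replicate 1 averaged 0.76 for photosynthesis genes, 0.76 for chlorophyll genes, -1.51 for gibberellin genes and -1.40 for defence genes.

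**Figure D1:**
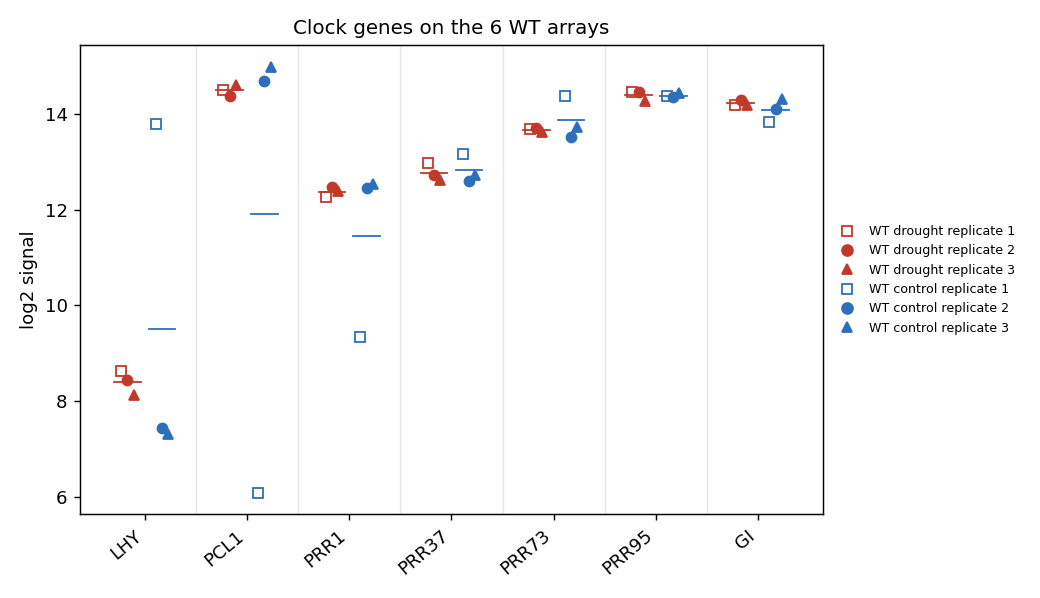
Log2 signal of 7 clock genes on each WT array, drought (red) left of control (blue), with the replicate given by the symbol and the group mean by a bar. Control replicate 1 (open blue square) is high for LHY at 13.79 and low for PCL1 at 6.08 and PRR1 at 9.34.

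The comparison was therefore made in 2 ways. Drought was set against all 3 control arrays, with all 12 arrays of the series in the fit, and against control replicates 2 and 3 alone, in a fit that also left out the osnox2 control arrays 1 and 2, which read 13.51 and 13.57 for LHY and 6.16 and 5.59 for PCL1. That choice of arrays rests on values of these data. Over all 32012 probe sets tested, 27 were higher (0.0843%) and 15 lower (0.0469%) with drought against 3 controls, which is 0.131% in all, and 3461 had an unadjusted p under 0.05. Against control replicates 2 and 3, 486 were higher (1.52%) and 464 lower (1.45%), or 2.97% in all, and 6048 had an unadjusted p under 0.05. The comparisons share their drought arrays and 2 control arrays, so their calls are not independent. Of the 950 probe sets, 461 changed at least 2-fold, 224 higher and 237 lower. In 18% of the probe sets tested every drought array was on one side of all 3 controls, and in 37% on one side of control replicates 2 and 3.

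The median residual SD was 0.418 in the 12-array fit and 0.270 in the 9-array fit, and when control replicate 1 alone was left out, with the other 11 arrays in the fit, 35 probe sets were higher and 45 lower. Centring each array on its median gave 528 higher and 218 lower in the 9-array fit, 70.8% higher where the values as deposited gave 51.2%, with a median difference of all probe sets of 0.08 after centring and -0.03 without it. Leaving out 1 array at a time gave between 2 calls (without drought replicate 2) and 197 calls (without osnox2 control 3) against 3 controls, and between 34 calls (without control replicate 3) and 1400 calls (without drought replicate 1) against control replicates 2 and 3. Under every alternative tried, hsp17.9 kept its call in both comparisons, and HSP18.0 and sodCp kept theirs against control replicates 2 and 3. Control replicate 1, which took no part in the 9-array fit, lay below all 3 drought arrays for 307 of the 486 higher probe sets (63.2%) and above all 3 drought arrays for 114 (23.5%). For the 464 lower probe sets it lay above all drought arrays for 214 (46.1%) and below all of them for 187 (40.3%). The same shares over all probe sets tested were not computed, so these counts are no support for the calls. Counts of genes use 1 probe set per gene, of which 15392 were tested. Of these 18 were higher (0.117%) and 9 lower (0.0585%) against 3 controls, 0.175% in all. There were 320 higher (2.08%) and 322 lower (2.09%), 4.17% in all, against control replicates 2 and 3. The counts of list members below stand beside these shares, and a count near them is not a result about its list. Counts of members at an unadjusted p under 0.05 stand beside 3461 and 6048 of the 32012 probe sets in these comparisons.

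Small heat shock proteins bind unfolding proteins and keep them from clumping. Of the 16 measured genes of this family 2 rose and none fell against 3 controls, and 7 rose and 1 fell against control replicates 2 and 3. The median difference of the 16 was 0.88 against 3 controls and 1.02 against control replicates 2 and 3, where the medians of all genes tested were 0.04 and 0.00. HSP18.0 (chromosome 1, 4459827 to 4460659) read 12.32, 12.56 and 12.42 on the drought arrays and 9.82, 10.40 and 10.39 on the control arrays. The gene hsp17.9 (chromosome 3, 8855768 to 8856759) read 12.61, 12.65 and 12.54 on the drought arrays and 10.64, 10.61 and 10.62 on the control arrays. In both genes every drought array exceeded every control array, control replicate 1 included. HSP18.0 rose by 2.04 ± 0.09 on the log2 scale against control replicates 2 and 3 (adjusted p = 0.000267) and by 2.23 ± 0.24 against 3 controls (adjusted p = 0.0129). The rise of hsp17.9 was 1.98 ± 0.13 against control replicates 2 and 3 (adjusted p = 0.00156) and 1.98 ± 0.14 against 3 controls (adjusted p = 0.000839).

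In HSP18.6 and HSP24.1 control replicate 1 was not with the other controls. HSP18.6 (chromosome 2, 33675255 to 33676225) read 10.17, 10.40 and 10.85 on the drought arrays and 11.39, 7.75 and 7.19 on the control arrays. HSP24.1 read 11.05, 10.75 and 10.63 on the drought arrays and 10.98, 8.35 and 8.27 on the control arrays. For both, control replicate 1 stood within or above the drought range and the other control arrays at least 2 log2 units below it. HSP18.6 rose by 3.01 ± 0.22 against control replicates 2 and 3 (adjusted p = 0.0018), and its difference against 3 controls was 1.70 (adjusted p = 0.648). HSP24.1 rose by 2.50 ± 0.19 against control replicates 2 and 3 (adjusted p = 0.0018), and its difference against 3 controls was 1.61 (adjusted p = 0.6). HSP17.4, HSP18.1, HSP26.2 and HSP18.8 complete the 8 called members and are named here after their values were seen. HSP17.4 read 8.80, 8.72 and 9.37 on the drought arrays and 8.09, 7.33 and 7.54 on the control arrays. HSP18.1 read 7.78, 7.97 and 8.04 on the drought arrays and 6.00, 6.80 and 6.64 on the control arrays. HSP26.2 read 8.10, 8.33 and 8.21 on the drought arrays and 6.99, 7.22 and 7.16 on the control arrays. These 3 genes were separated from all 3 controls, and against control replicates 2 and 3 HSP17.4 rose by 1.53 ± 0.22, HSP18.1 by 1.21 ± 0.17 and HSP26.2 by 1.02 ± 0.20. HSP17.4 and HSP18.1 lie next to each other on chromosome 3 (8883827 to 8884671 and 8885024 to 8886003). HSP18.8 was the 1 member that fell. It read 11.57, 11.11 and 11.42 on the drought arrays and 11.70, 12.58 and 12.83 on the control arrays, and fell by 1.34 ± 0.15 against control replicates 2 and 3 (adjusted p = 0.00667). Some of these genes are close relatives, and the probe sets of HSP18.1, HSP18.8, HSP18.6 and HSP26.2 are of designs that can bind related transcripts. HSP18.0 and HSP18.6 have 3 probe sets each, of which 2 agreed in direction. Only 1 of the 3 passed for HSP18.0 and 2 for HSP18.6 against control replicates 2 and 3.

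Of 18 measured heat stress factor genes 0 passed with limma against 3 controls, with 5 at an unadjusted p under 0.05, while 4 rose and none fell against control replicates 2 and 3, with a median of 0.48. HSFB2B (chromosome 8, 27529974 to 27531572), a class B factor, read 8.05, 8.81 and 7.40 on the drought arrays and 5.79, 3.50 and 5.0 on the control arrays. It rose by 3.84 ± 0.50 (adjusted p = 0.00977) against control replicates 2 and 3, or by 2.00 with an offset of 64 added to the signals, and its control signals were near or under the array median. HSFB2C read 9.35, 9.41 and 10.01 on the drought arrays and 8.49, 7.58 and 7.34 on the control arrays, and rose by 2.13 ± 0.21 (adjusted p = 0.00496). In these 2 genes all drought arrays exceeded all 3 controls. HSFB2A read 9.69, 9.65 and 8.42 on the drought arrays and 10.71, 6.63 and 6.51 on the control arrays, so that control replicate 1 was above the drought arrays. It rose by 2.68 ± 0.44 (adjusted p = 0.0199) against control replicates 2 and 3. HSFA2E, a class A factor, rose by 0.52 ± 0.09 (adjusted p = 0.0252).

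Of 15 larger chaperone genes 4 rose and none fell against control replicates 2 and 3, and 0 passed with limma against 3 controls, with 2 at an unadjusted p under 0.05. CLPB1, a ClpB chaperone that takes protein aggregates apart, read 6.94, 7.46 and 7.55 on the drought arrays and 4.80, 5.48 and 5.49 on the control arrays. Its drought and control arrays were apart by more than 1 log2 unit, and it rose by 1.83 ± 0.28 (adjusted p = 0.0165). CLPB-M, the mitochondrial form, read 8.46, 8.32 and 8.43 on the drought arrays and 8.29, 6.80 and 6.55 on the control arrays, and rose by 1.73 ± 0.17 (adjusted p = 0.00508). CLPB-C, the form of the chloroplast, and HSP81-1, a cytosolic HSP90, rose by 0.44 ± 0.08 and 0.52 ± 0.08, and for these 2 control replicate 1 was above all drought arrays. HSP81-1 has 2 probe sets, which disagreed in direction. With the 2 osnox2 control arrays kept in the spread, the calls of HSP18.0 and hsp17.9 held (adjusted p = 0.0193 and 0.00436), no other small heat shock protein gene passed, and of the heat stress factors and larger chaperones 0 passed.

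**Figure D2:**
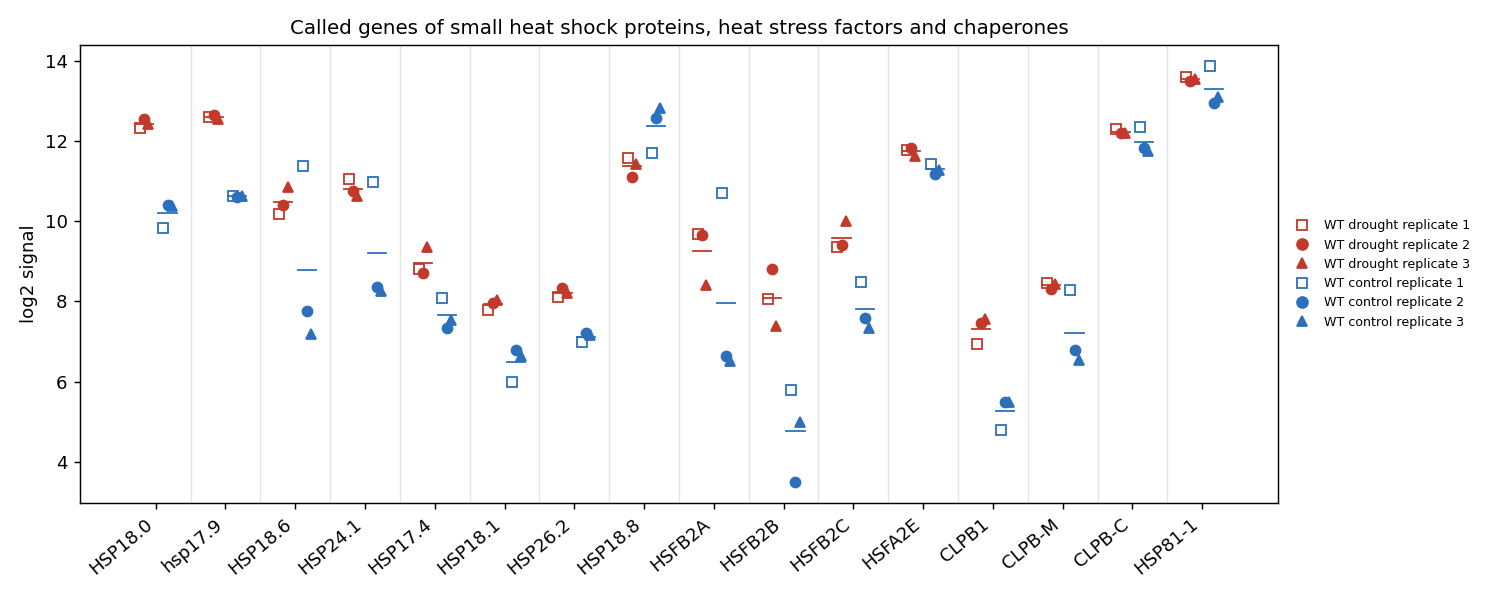
Log2 signal of the 16 genes of small heat shock proteins, heat stress factors and larger chaperones that passed against control replicates 2 and 3, drought (red) left of control (blue), with replicate by symbol and group mean by a bar. HSP18.0 and hsp17.9 are above 12 on the drought arrays and under 11 on all controls, while control replicate 1 (open blue square) reaches the drought level in HSP18.6, HSP24.1 and HSFB2A, and HSP18.8 is lower with drought.

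Copper/zinc superoxide dismutases turn superoxide into hydrogen peroxide. All 3 copper/zinc forms among the 16 measured genes for scavenging of reactive oxygen species rose against control replicates 2 and 3, and 1 of them also against 3 controls. The chloroplast form, sodCp (chromosome 8, 28280148 to 28283373), read 14.02, 13.99 and 13.84 on the drought arrays and 13.06, 12.92 and 12.88 on the control arrays. SodCc2 (chromosome 7, 28303368 to 28305482), a cytosolic form, read 13.20, 13.40 and 13.47 on the drought arrays and 12.30, 12.04 and 11.15 on the control arrays. Both were separated from all 3 controls. SodCp rose by 1.05 ± 0.08 against control replicates 2 and 3 (adjusted p = 0.0018) and also rose against 3 controls, by 1.0 ± 0.12 (adjusted p = 0.0218), and SodCc2 rose by 1.76 ± 0.22 (adjusted p = 0.00919), with a value of 1.53 against 3 controls (adjusted p = 0.0654). SodCc1, another cytosolic form, read 12.94, 12.92 and 13.08 on the drought arrays and 13.96, 12.49 and 12.04 on the control arrays. It rose by 0.71 ± 0.13 (adjusted p = 0.0305), and control replicate 1 was the highest of the 6 arrays. CCS (chromosome 4, 29380532 to 29385029), the chaperone that hands copper to these enzymes, was named after its values were seen. CCS read 12.31, 12.19 and 12.08 on the drought arrays and 12.31, 11.46 and 10.87 on the control arrays, and rose by 1.03 ± 0.16 (adjusted p = 0.0176). The fourth called gene of the list was APX4, an ascorbate peroxidase, at 12.37, 12.18 and 12.29 on the drought arrays and 12.82, 12.85 and 13.09 on the control arrays, and it fell by 0.69 ± 0.10 (adjusted p = 0.0126). The 12 other members did not pass, and the list's median was 0.07.

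Of 45 measured genes of copper, zinc and iron uptake and handling 0 rose and 6 fell against control replicates 2 and 3, and 1 fell against 3 controls. The median was -0.40 against control replicates 2 and 3 and -0.26 against 3 controls. The copper uptake transporter gene COPT1 (chromosome 1, 33128929 to 33129782) read 10.87, 10.69 and 11.26 on the drought arrays and 13.87, 13.06 and 13.51 on the control arrays. Every drought array was more than 1 log2 unit below every control array. COPT1 fell by 2.35 ± 0.30 against control replicates 2 and 3 (adjusted p = 0.00943) and by 2.54 against 3 controls (adjusted p = 0.0257). ZIP2 (LOC4333098), of the ZIP family of zinc and iron transporters, read 7.32, 7.15 and 7.33 on the drought arrays and 8.43, 8.56 and 9.30 on the control arrays, and fell by 1.66 ± 0.26 (adjusted p = 0.0182). ZIP3 (LOC4338051) and ZIP4 of the same family fell by 2.00 ± 0.38 and 1.73 ± 0.31. ZIP3 read 6.78, 7.62 and 7.68 on the drought arrays and 7.17, 9.23 and 9.49 on the control arrays. ZIP4 read 6.90, 6.81 and 6.95 on the drought arrays and 6.27, 8.39 and 8.84 on the control arrays. In these 2 genes control replicate 1 was not with the other controls but within or under the drought range. YSL16, which carries copper bound to nicotianamine in rice, fell by 1.05 ± 0.14 (adjusted p = 0.011) and NRAMP4, of the NRAMP family of metal transporters, by 0.81 ± 0.11 (adjusted p = 0.0107), and only 1 of the 5 probe sets of NRAMP4 passed. NAAT1, of mugineic acid synthesis, read 11.77, 12.26 and 12.38 on the drought arrays and 13.15, 13.42 and 13.64 on the control arrays and did not pass (adjusted p = 0.0561). NAAT1 was named after its values were seen. Of these genes COPT1 and ZIP2, and of the superoxide dismutases sodCp and SodCc2, also passed with the 2 osnox2 control arrays kept in the spread.

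**Figure D3:**
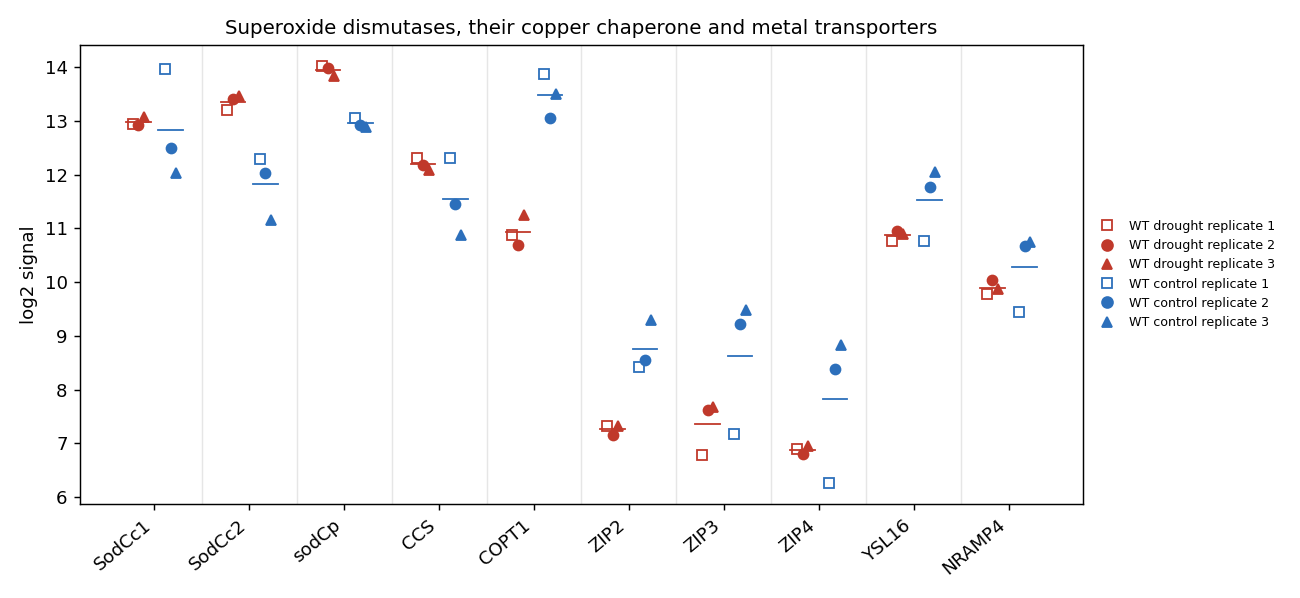
Log2 signal of the copper/zinc superoxide dismutase genes, CCS and the 6 called metal transporter genes, drought (red) left of control (blue), with replicate by symbol and group mean by a bar. The dismutases and CCS are higher on drought arrays than on control replicates 2 and 3, and COPT1 and ZIP2 are lower on all drought arrays than on all controls.

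Of 8 LEA protein and dehydrin genes in the annotation 6 were measured and 2 were too dim, and 0 of the 6 passed with limma in either comparison, with 5 at an unadjusted p under 0.05 in each. LEA19, RAB21 and RAB16B lay below the array median on all control arrays of the series and were kept by the filter only through drought arrays, and EM was above the median on 2 control arrays, fewer than the 3 arrays the filter asks for. For such genes a higher drought value follows in part from the filter, so the positive sign of all 6 and their median (4.53 against 3 controls, 3.86 against control replicates 2 and 3) are given as a description only. RAB21 (chromosome 11, 17198954 to 17200186) read 6.78, 10.56 and 11.93 on the drought arrays and 2.68, 5.29 and 2.89 on the control arrays. RAB16B (chromosome 11, 17192363 to 17193492), its neighbour and relative, read 5.03, 9.79 and 10.96 on the drought arrays and 2.79, 0.36 and 1.65 on the control arrays. LEA19 read 6.30, 8.32 and 9.64 on the drought arrays and 0.47, 2.00 and 1.34 on the control arrays. In these genes every drought array lay above every control array, but drought replicate 1 was well below the other 2 drought arrays. The dehydrin gene Dhn1 read 10.99, 12.50 and 13.36 on the drought arrays and 10.77, 10.40 and 10.06 on the control arrays. EM read 3.31, 8.12 and 9.18 on the drought arrays and 4.14, 6.02 and 5.02 on the control arrays, with drought replicate 1 below all controls. RAB16C read 8.83, 8.95 and 10.10 on the drought arrays and 2.38, 8.46 and 8.30 on the control arrays. EM, RAB16B and RAB16C were named after their values were seen.

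Drought replicate 1 was the lowest drought array for 6 of the 6 LEA genes, where it was the lowest for 41.6% of all genes tested. Relative to the mean of control replicates 2 and 3, the 6 genes averaged 1.73 on drought replicate 1, 4.56 on replicate 2 and 5.72 on replicate 3. Without drought replicate 1, the differences against control replicates 2 and 3 were 2.70 ± 0.32 for Dhn1, 7.16 ± 1.07 for RAB21 and 3.13 ± 0.52 for EM. They were 7.31 ± 1.91 for LEA19, 9.37 ± 2.30 for RAB16B and 1.15 ± 0.38 for RAB16C. Against all 3 controls the differences were then 2.53 ± 0.34 for Dhn1, 7.62 ± 1.42 for RAB21 and 3.59 ± 0.67 for EM. For LEA19, RAB16B and RAB16C they were 7.71 ± 1.67, 8.78 ± 2.00 and 3.15 ± 1.51. That array was left out after these genes were seen to be low on it. These values are therefore a description only, and no p-value is given for them. The size of the differences also depends on dim control signals. With an offset of 64 added to the signals, the list's median with all drought arrays was 2.22 against control replicates 2 and 3.

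**Figure D4:**
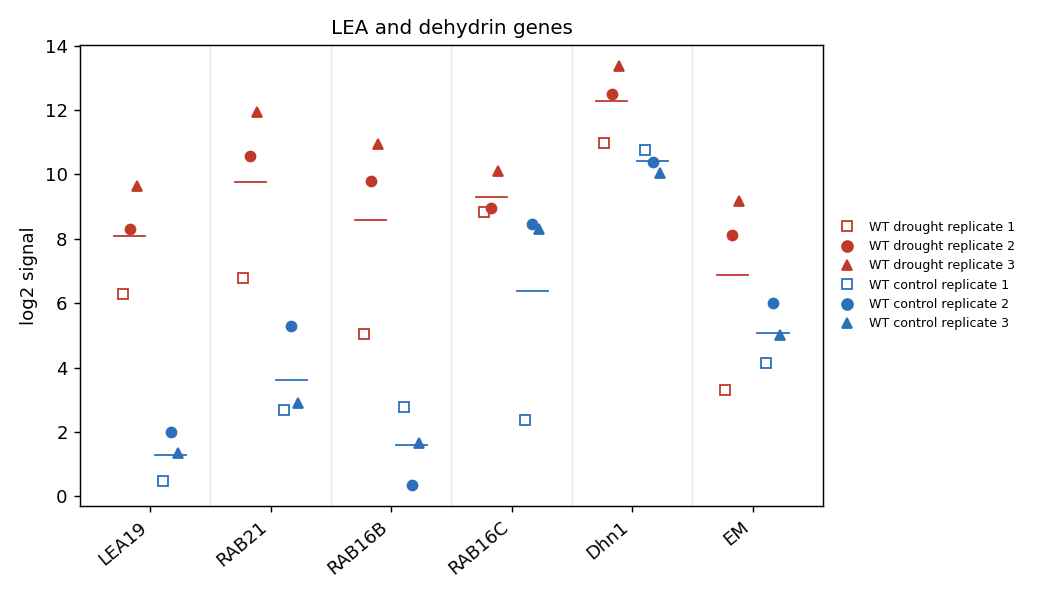
Log2 signal of the 6 LEA and dehydrin genes on each WT array, drought (red) left of control (blue), with replicate by symbol and group mean by a bar. Drought replicate 1 (open red square) is the lowest drought array in all 6 genes, at 6.78 for RAB21 where replicates 2 and 3 read 10.56 and 11.93.

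ABA acts through receptors that block PP2C phosphatases and so free SAPK kinases. Of 65 measured genes of ABA receptors, PP2C phosphatases and SAPK kinases 0 passed with limma in either comparison, with 11 at an unadjusted p under 0.05 against 3 controls and 19 against control replicates 2 and 3, and the median was -0.05 and -0.09 in these comparisons. PP2C30 read 11.18, 11.94 and 12.42 on the drought arrays and 9.79, 10.78 and 10.52 on the control arrays, with a difference of 1.20 ± 0.37 against control replicates 2 and 3 (adjusted p = 0.129). SAPK9 read 12.73, 12.92 and 12.99 on the drought arrays and 6.91, 13.29 and 13.39 on the control arrays (adjusted p = 0.053 against control replicates 2 and 3). In SAPK9 the drought arrays lay just under control replicates 2 and 3, and control replicate 1 lay far below all of them. Of the 3 genes of ABA synthesis and breakdown 0 passed, with 2 at an unadjusted p under 0.05 against control replicates 2 and 3, and ABA8OX2, which breaks ABA down, had a difference of 0.98 ± 0.33 (adjusted p = 0.153). Of 17 bZIP factor genes 0 passed with limma against 3 controls, with 5 at an unadjusted p under 0.05, and 2 rose and 1 fell against control replicates 2 and 3. BZIP23, known in rice as an activator of ABA-responsive genes, read 10.83, 11.78 and 12.28 on the drought arrays and 11.07, 9.95 and 9.94 on the control arrays. It rose by 1.68 ± 0.36 (adjusted p = 0.0476) and control replicate 1 lay among the drought arrays. BZIP60 rose by 1.42 ± 0.19 (adjusted p = 0.00998) and BZIP52 fell by 1.30 ± 0.28 (adjusted p = 0.0478).

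Hox22, a homeodomain leucine zipper factor, read 9.12, 10.31 and 10.42 on the drought arrays and 10.96, 7.57 and 7.27 on the control arrays. It rose by 2.53 ± 0.39 against control replicates 2 and 3 (adjusted p = 0.0165), and control replicate 1 was above all drought arrays. Of 6 WRKY genes WRKY62 rose, by 1.77 ± 0.24 (adjusted p = 0.011), and it read 10.29, 10.97 and 10.97 on the drought arrays and 8.07, 9.18 and 8.76 on the control arrays. WRKY76, which starts at 19354351 on chromosome 9 where WRKY62 starts at 19370825, stood at 10.34, 11.96 and 11.13 on the drought arrays and 9.03, 9.80 and 9.43 on the control arrays, and did not pass (adjusted p = 0.0724). None of the 9 DREB and ERF genes, 7 NAC genes or 11 MYB genes passed with limma in either comparison. At an unadjusted p under 0.05 against control replicates 2 and 3 there were 1, 1 and 3 of them.

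Phytoene synthase makes the first carotenoid, and of its genes PSY3 rose and PSY2 fell against control replicates 2 and 3, the only calls among 8 genes of the pathway. PSY3 read 10.02, 11.01 and 10.94 on the drought arrays and 9.49, 8.81 and 7.57 on the control arrays, and rose by 2.46 ± 0.41 (adjusted p = 0.0219). PSY2 read 7.80, 7.54 and 8.28 on the drought arrays and 12.97, 9.65 and 9.98 on the control arrays, and fell by 1.94 ± 0.28 (adjusted p = 0.0139). Neither gene's drought arrays overlapped any control array. Of 14 chlorophyll genes PORB, which reduces protochlorophyllide in the light, rose by 0.75 ± 0.13 (adjusted p = 0.0271). Of 16 photosynthesis genes 0 rose and 2 fell. These were CFBP1, the cytosolic fructose bisphosphatase of sucrose synthesis, by 0.46 ± 0.09 (adjusted p = 0.0442) and PPDK1, a pyruvate phosphate dikinase, by 0.74 ± 0.14 (adjusted p = 0.0293). PPDK1 read 10.93, 10.57 and 10.68 on the drought arrays and 13.67, 11.52 and 11.43 on the control arrays. The other 14 did not pass, and the list's median was 0.08.

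Of 28 sucrose and sugar transport genes 1 rose and 2 fell against control replicates 2 and 3. The sucrose synthase gene RSS1 (LOC4340386) read 13.11, 13.34 and 13.29 on the drought arrays and 12.91, 12.73 and 12.66 on the control arrays, and rose by 0.55 ± 0.09 (adjusted p = 0.0199). The sugar transporter genes SWEET1A and MST3 fell by 1.14 ± 0.12 (adjusted p = 0.00559) and 0.84 ± 0.18 (adjusted p = 0.0485). SWEET1A read 10.98, 10.91 and 11.13 on the drought arrays and 9.73, 12.14 and 12.16 on the control arrays, so control replicate 1 was below the drought arrays. Of 17 nitrogen genes GDH, for glutamate dehydrogenase, fell by 0.96 ± 0.14 (adjusted p = 0.0144), where 4.17% of all genes tested passed. Of 21 ion transport genes the potassium transporter genes HAK11 and HAK9 passed, HAK11 with a rise of 0.74 ± 0.12 (adjusted p = 0.0203) and HAK9 with a fall of 1.38 ± 0.21 (adjusted p = 0.0153). HAK11 read 10.21, 10.15 and 10.21 on the drought arrays and 9.39, 9.47 and 9.42 on the control arrays. Its drought arrays did not overlap any control array. None of 21 aquaporin genes, 14 phosphate genes, 13 genes of compatible solutes or 8 starch genes passed with limma in either comparison, where 8, 4, 5 and 1 of them had an unadjusted p under 0.05 against control replicates 2 and 3. P5CS1, of proline synthesis, read 11.38, 11.80 and 12.17 on the drought arrays and 11.47, 11.09 and 11.11 on the control arrays, with an adjusted p of 0.119 against control replicates 2 and 3.

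Germin-like proteins are cell wall proteins, some of which produce hydrogen peroxide. GER4 (chromosome 1, 10192750 to 10194122) read 8.22, 9.64 and 9.44 on the drought arrays and 2.84, 1.80 and 5.49 on the control arrays. It rose by 5.46 ± 0.92 against control replicates 2 and 3 (adjusted p = 0.0227), or by 2.85 with an offset of 64, and by 5.72 ± 0.82 against 3 controls (adjusted p = 0.0388). For GER4, as for EM, fewer control arrays of the series were above the array median than the 3 the filter asks for. Its higher drought value follows in part from the filter. In 3 relatives on chromosome 8 the direction was opposite. GLP2 read 4.45, 6.27 and 6.69 on the drought arrays and 6.66, 9.36 and 9.94 on the control arrays, and fell by 3.85 ± 0.66 (adjusted p = 0.0246). GER5 read 4.18, 4.22 and 4.16 on the drought arrays and 4.84, 7.08 and 7.67 on the control arrays, and fell by 3.19 ± 0.50 (adjusted p = 0.0182), or by 1.49 with an offset of 64. Among the WT arrays GER5 was above the array median only on control replicates 2 and 3, fewer than the 3 arrays the filter asks for. The fall of GER5 follows in part from the filter. GER6 fell by 2.61 ± 0.49 (adjusted p = 0.0318). Control replicate 1 read 6.66, 4.84 and 6.19 for GLP2, GER5 and GER6, below the other controls in each. Of the 7 measured members 1 rose and 3 fell against control replicates 2 and 3, and with the 2 osnox2 control arrays in the spread 0 passed.

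ASMT, for the last enzyme of melatonin synthesis, read 10.69, 12.14 and 12.47 on the drought arrays and 11.22, 8.99 and 8.19 on the control arrays. It rose by 3.17 ± 0.49 against control replicates 2 and 3 (adjusted p = 0.0167), with control replicate 1 inside the drought range. D53-L, a relative of a repressor of strigolactone signalling, read 11.46, 11.16 and 11.66 on the drought arrays and 12.39, 12.38 and 12.42 on the control arrays. It fell by 0.98 ± 0.14 (adjusted p = 0.0127) and by 0.97 against 3 controls (adjusted p = 0.0279), with no overlap. BAK1, a co-receptor of brassinosteroids, fell by 0.68 ± 0.10 (adjusted p = 0.0143). GH3-8, an enzyme that joins auxin to amino acids, read 7.11, 7.83 and 8.59 on the drought arrays and 7.07, 5.97 and 5.66 on the control arrays. It rose by 2.03 ± 0.42 (adjusted p = 0.0441). ARF3, an auxin response factor, rose by 0.56 ± 0.12 and IAA8, an Aux/IAA gene, fell by 1.55 ± 0.33 (adjusted p = 0.0475 and 0.0499). That made 2 rises and 1 fall among 47 auxin genes, where 4.17% of all genes tested passed. Of 27 cytokinin genes ORR3 rose by 0.65 ± 0.12 (adjusted p = 0.0273), and LOGL10, of a family of cytokinin-activating enzymes, fell by 2.73 ± 0.44 (adjusted p = 0.0194). LOGL10 read 8.34, 7.18 and 8.76 on the drought arrays and 6.98, 10.99 and 10.66 on the control arrays. The ethylene receptor gene ERS2 fell by 0.80 ± 0.16 (adjusted p = 0.0377), 1 of 9 ethylene genes. Of the 29 jasmonate genes and the 18 gibberellin genes 0 passed with limma, with 6 and 2 at an unadjusted p under 0.05 against control replicates 2 and 3. Over all 32012 probe sets 6048 had such a p. The jasmonate median was -0.25, with 6 of 29 positive, where 7770 of all 15392 genes were.

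Of 20 defence genes 2 rose and 1 fell. LTP, a lipid transfer protein, rose by 0.69 ± 0.09 (adjusted p = 0.011), LTP2-B rose by 1.19 ± 0.22 (adjusted p = 0.0323) and the chitinase gene Cht2 fell by 1.42 ± 0.27 (adjusted p = 0.0322). LTP2-B has 3 probe sets, of which 2 agreed in direction. Cht2 read 11.02, 10.56 and 10.28 on the drought arrays and 5.77, 11.96 and 12.12 on the control arrays, so the sign of its difference against 3 controls, 0.67, was the opposite. CAD3, a cinnamyl alcohol dehydrogenase of lignin synthesis, read 9.88, 9.80 and 9.66 on the drought arrays and 12.54, 10.93 and 11.04 on the control arrays. It fell by 1.20 ± 0.15 (adjusted p = 0.0089), the 1 call among 19 lignin and phenylpropanoid genes. LAC10, a laccase, read 8.06, 10.32 and 11.43 on the drought arrays and 5.45, 7.09 and 5.73 on the control arrays and did not pass (adjusted p = 0.0811). Of 41 cell wall genes 1 rose, CSLH1 by 0.49 ± 0.09, and 1 fell, XRT5 by 1.58 ± 0.28. KRP1, an inhibitor of the cell cycle, fell by 0.42 ± 0.08 (adjusted p = 0.0368) as the 1 call among 41 cell division genes. Of all genes tested 4.17% passed, so the counts in the lignin, cell wall and cell division lists are not results about these lists.

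Of 24 measured genes of cytosolic ribosomal proteins 2 rose against control replicates 2 and 3, RPL7A-1 by 0.39 ± 0.08 (adjusted p = 0.0367) and RPL10A by 0.34 ± 0.07 (adjusted p = 0.0499), and 23 had a positive difference, with a median of 0.20. Against 3 controls 23 of them were positive with a median of 0.26, and 0 passed, with 14 at an unadjusted p under 0.05. Of all 15392 genes tested 8445 were positive against 3 controls and 7770 against control replicates 2 and 3. With centring on array medians 23 of the 24 ribosomal protein genes were positive and 0 passed against control replicates 2 and 3. Of all 32012 probe sets 18819 were then positive. In the flowering list of 15 genes MADS50 and DTH8, which set flowering time in rice, fell by 0.64 ± 0.13 and 1.64 ± 0.28. DTH8 read 7.97, 7.01 and 7.32 on the drought arrays and 6.16, 9.01 and 9.13 on the control arrays, with control replicate 1 the lowest of the 6. For LHY no test is given against control replicates 2 and 3, since those arrays were kept for their LHY and PCL1 values. Its difference was 1.03 against them and -1.11 against 3 controls, which is the opposite sign. SAM1, an S-adenosylmethionine synthetase, read 13.39, 13.49 and 13.58 on the drought arrays and 14.14, 12.73 and 12.82 on the control arrays, and rose by 0.71 ± 0.08 (adjusted p = 0.00698). In the thioredoxin and glutaredoxin list 2 of 38 fell, GRXC15 by 1.61 ± 0.27 and NTRB by 0.50 ± 0.10. GSTZ5 fell by 0.45 ± 0.09 (adjusted p = 0.0443) among 6 glutathione transferase genes, and CML29, a calmodulin-like protein, fell by 0.59 ± 0.13 (adjusted p = 0.0496) among 70 genes of calcium signalling. With 4.17% of all genes passing, the counts in the redoxin and calcium signalling lists are not results about these lists. Of 17 MAP kinase genes, 5 histone genes and 30 genes of ubiquitin, proteases and autophagy 0 passed with limma, where 2, 1 and 7 had an unadjusted p under 0.05 against control replicates 2 and 3. OsNrx2, a nucleoredoxin outside that list, rose by 1.99 ± 0.35 (adjusted p = 0.0272) and read 9.34, 10.41 and 10.71 on the drought arrays and 8.65, 8.05 and 8.28 on the control arrays. The NADPH oxidase gene RBOHB read 12.61, 12.60 and 12.28 on the drought arrays and 9.48, 12.70 and 12.66 on the control arrays and did not pass (adjusted p = 0.417).

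The remaining named falls by the rule were CRSH2, BGLU3 and mfs1. CRSH2, a chloroplast relative of bacterial enzymes of the stringent response, read 7.70, 7.15 and 7.34 on the drought arrays and 8.70, 8.97 and 9.40 on the control arrays. BGLU3, a beta-glucosidase, read 5.39, 6.02 and 6.00 on the drought arrays and 9.31, 7.73 and 7.38 on the control arrays. For both, the drought arrays lay below all controls, and against control replicates 2 and 3 CRSH2 fell by 1.79 ± 0.28 and BGLU3 by 1.75 ± 0.29. The gene mfs1 read 11.29, 10.45 and 10.28 on the drought arrays and 10.24, 12.33 and 12.66 on the control arrays. It fell by 1.82 ± 0.32 against control replicates 2 and 3 (adjusted p = 0.0247), but control replicate 1 was below all drought arrays and the difference against 3 controls was -1.07 (adjusted p = 0.631). Of the 712 probe sets called against control replicates 2 and 3 that match 1 gene, 142 have a gene name, and the following are given by locus. LOC4346387 (chromosome 9, 4882343 to 4883065) read 7.53, 9.18 and 10.01 on the drought arrays and 3.23, 4.90 and 5.24 on the control arrays. It rose by 4.45 ± 0.67 against 3 controls (adjusted p = 0.0423), or by 2.65 with an offset of 64. LOC4328933 (chromosome 2, 9042917 to 9049118) read 7.60, 8.20 and 7.49 on the drought arrays and 5.68, 4.63 and 4.51 on the control arrays, and rose by 2.82 ± 0.40 (adjusted p = 0.0388). LOC4325432 rose by 4.57 ± 0.72 (adjusted p = 0.0488), but its control signals of 1.64, 1.09 and 1.17 were dim, and with an offset of 64 the value was 0.91. LOC4325432 lay below the array median on all control arrays of the series. For LOC4346387 fewer control arrays were above the median than the 3 the filter asks for. The higher drought values of these 2 genes follow in part from the filter. LOC4327501 (chromosome 1, 36802384 to 36805219) read 8.64, 11.41 and 12.17 on the drought arrays and 5.59, 6.01 and 4.84 on the control arrays. LOC4345187 (chromosome 8, 11681912 to 11683370) read 7.97, 10.68 and 11.19 on the drought arrays and 6.24, 5.63 and 5.07 on the control arrays. In both, drought replicate 1 was the lowest drought array, as in the LEA genes, and against control replicates 2 and 3 LOC4327501 rose by 5.32 ± 1.01 and LOC4345187 by 4.59 ± 0.81.

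Among the falls without a gene name, LOC4331629 (chromosome 3, 2756957 to 2762410) read 7.27, 6.41 and 6.29 on the drought arrays and 8.60, 9.19 and 9.27 on the control arrays. It fell by 2.37 ± 0.33 against 3 controls (adjusted p = 0.034), and both of its probe sets passed against control replicates 2 and 3. LOC4344496 fell by 3.09 ± 0.49 (adjusted p = 0.0488) and LOC4350749 by 2.51 ± 0.34 (adjusted p = 0.034) against 3 controls. LOC4336657 (chromosome 4, 28614053 to 28618895) read 8.87, 9.99 and 8.12 on the drought arrays and 11.68, 13.89 and 14.20 on the control arrays, and fell by 5.06 ± 0.91 against control replicates 2 and 3 (adjusted p = 0.0287). LOC4349078 (chromosome 10, 20221122 to 20222025) read 7.50, 8.26 and 9.96 on the drought arrays and 0.00, 13.18 and 13.24 on the control arrays. Its fall of 4.64 ± 0.60 rests on leaving out control replicate 1, where the gene stood at the lowest value. LOC4324024 read 2.47, 2.76 and 1.63 on the drought arrays and 0.48, 10.42 and 5.83 on the control arrays, so its 2 remaining controls differed by more than 4 log2 units from each other. With the 2 osnox2 control arrays kept in the spread, LOC4328933, LOC4350749, LOC4331629, LOC4349078, ASMT, D53-L, SWEET1A and HAK9 still passed, beside the heat shock, dismutase and metal genes already named.

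As means over their members, the heat stress factor, small heat shock protein and LEA lists were higher on each drought array than on any control array. This did not hold for every member (HSP18.8 and EM, for example). It also held, at smaller values, for the larger chaperone, reactive oxygen, cytosolic ribosomal protein, histone and defence lists. The larger chaperone list averaged 0.29, 0.31 and 0.38 on the drought arrays and 0.14 on control replicate 1. The LEA list holds genes kept by the filter only through drought arrays, so its level is a description only. The heat stress factor list averaged 0.82, 1.03 and 1.05 above the mean of control replicates 2 and 3 on the 3 drought arrays, and the small heat shock protein list 0.67, 0.78 and 1.10, while control replicate 1 averaged -0.05 for the factors and 0.27 for the small heat shock proteins. The copper, zinc and iron list averaged -0.77, -0.61 and -0.32 on the drought arrays, and -0.39 on control replicate 1. On drought replicate 3 its displacement was smaller than on control replicate 1. The gibberellin and defence lists differed more on control replicate 1 (-1.51 and -1.40) than on any drought array.

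**Figure D5:**
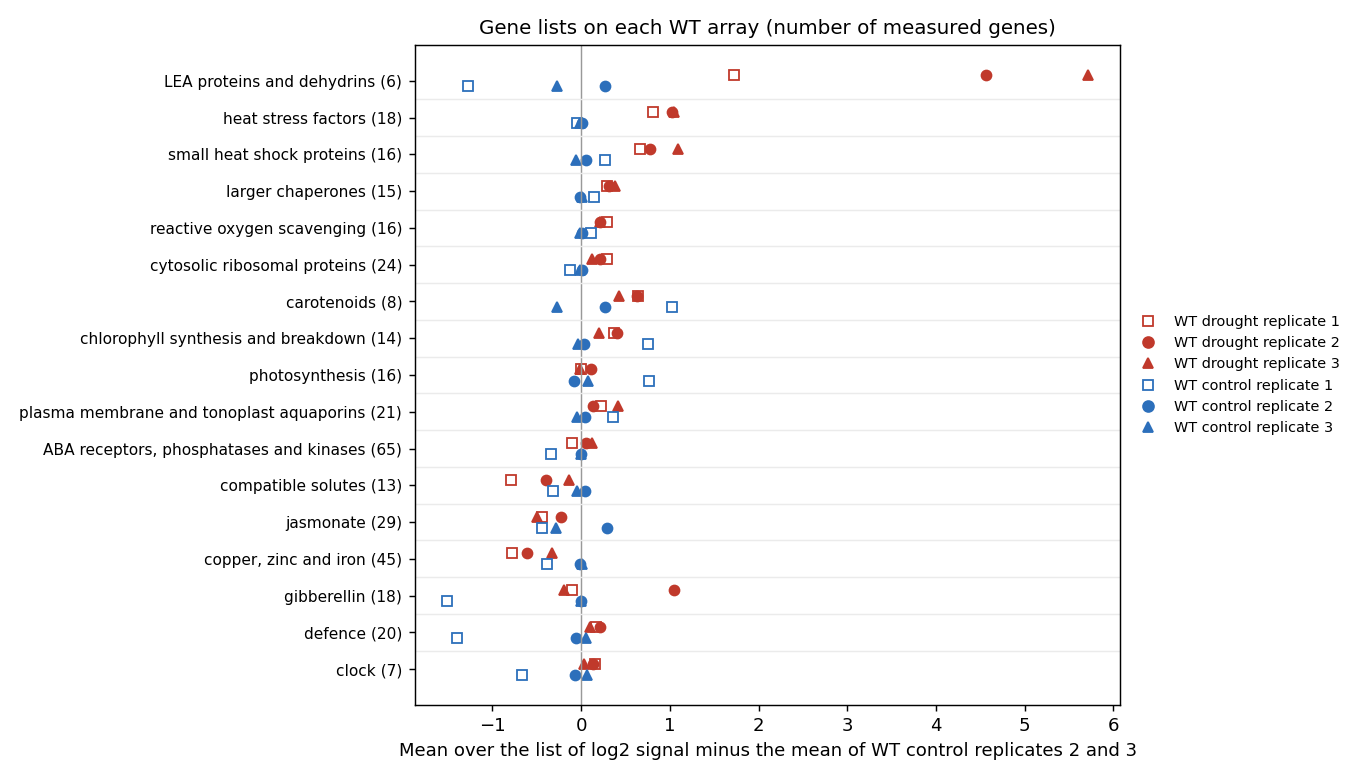
Mean over the measured genes of each list of the log2 signal minus the mean of WT control replicates 2 and 3, for each WT array, drought (red) above control (blue), with replicate by symbol and the number of genes in brackets. The LEA list lies at 1.73, 4.56 and 5.72 on the drought arrays and at -1.27 on control replicate 1 (open blue square). Control replicate 1 is also displaced in the gibberellin, defence, carotenoid, photosynthesis, chlorophyll and clock lists.

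The WT response was set beside that of osnox2, grown in the same pots. In limma's test of the difference between the WT and the osnox2 response 0 of 32012 probe sets (0%) passed, and for 1075 the unadjusted p was under 0.05. Of the 42 probe sets called in WT against 3 controls, 40 had the same sign in osnox2 (95.2%), where 67.7% of all probe sets had. The WT and osnox2 comparisons share no array, but both hold control arrays with high LHY and low PCL1. Of the 950 called against control replicates 2 and 3, 855 (90%) had the same sign in osnox2 against its 1 remaining control array, where 65.1% of all had. HSP18.0 differed by 2.23 in WT and 1.51 in osnox2 in the 12-array fit, and by 2.04 in WT and 2.13 in osnox2 in the 9-array fit, so the order of the genotypes turned. COPT1 differed by -2.54 in WT and -2.90 in osnox2 in the 12-array fit, and by -2.35 in WT and -2.38 in osnox2 in the 9-array fit. D53-L differed by -0.97 in WT and -0.24 in osnox2 in the 12-array fit, and by -0.98 in WT and -0.31 in osnox2 in the 9-array fit. The difference of responses for D53-L was -0.73 (adjusted p = 0.986) and -0.67 (adjusted p = 0.508) in these fits. In the 9-array fit osnox2 has 1 control array, and its spread is borrowed from the other groups. There GER5 differed by -3.19 in WT and -0.02 in osnox2 and HAK11 by 0.74 and -0.03, and the differences of responses, -3.17 and 0.77, did not pass (adjusted p = 0.341 for each). Over all probe sets, 8 passed this test in the 9-array fit, each with a lower drought minus control value in WT than in osnox2, and each resting on that 1 osnox2 control array. A p that misses the threshold does not show that the responses were alike.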

How the data were processed

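Total RNA of rice leaves was hybridised to 12 Affymetrix arrays. The deposited values are log2 signals of 57258 probe sets, made by the authors with MAS5 per the submitters' processing notes, whose version and settings are not given in the sources used here. All 12 columns were used. The 64 reporter probe sets were left out, and the 32012 probe sets above their own array's median on at least 3 arrays were kept. The values were not normalized again. Means were compared with lmFit and eBayes with an intensity trend in limma 3.58.1 (R 4.3.3), with Benjamini-Hochberg adjustment over all probe sets kept and a threshold of 0.05. Tables and figures were made with Python 3.11.15, numpy 2.4.6, pandas 2.3.3 and matplotlib 3.10.9, and the fit was tested on simulated data. There, 28% of changes of 1 log2 unit passed in the 12-array fit and 38% in the 9-array fit. For changes of 3 log2 units it was 68% in each. The simulated noise was independent between arrays, with no array standing apart as control replicate 1 does. Many genes that changed can thus have missed the threshold. The number of arrays limits the precision.

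Probe sets were matched to genes by the platform annotation and RefSeq, whose positions are those of assembly ASM3414082v1. Of 57194 probe sets, 22436 matched 1 gene, 95 several and 34663 none. A gene's value is that of its probe set with the highest mean over the 12 arrays. The 50 gene lists were matched by symbol. Named genes were the 12 largest rises and falls with a name and the 3 largest without one in each comparison, up to 4 called members of each list, and up to 3 members with the smallest p where none was called. Exceptions are stated. The comparison, lists and the choice to leave out control arrays were made with earlier results of these data known. Alternatives changed the filter, offset, normalization, trend, arrays and replicate block. RNA quality from control probe sets and promoter motifs were not analysed here.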

Additional observations from a re-analysis of the deposited data

How the results depend on the processing

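Against 3 controls, the 42 calls became 25 without a filter, 11 without the intensity trend, 2 with only WT arrays in the fit, 66 after quantile normalization and 18 with the replicate number as a block, and between 2 and 197 when 1 array was left out. Against control replicates 2 and 3, the 950 calls became 80 with 11 arrays, 212 without the trend, 435 with only WT arrays and 461 when a change of at least 2-fold was also asked for, and between 34 and 1400 when 1 array was left out. The replicate block gave 961. The test of the difference between WT and osnox2 gave 8 calls with 9 arrays, where osnox2 has 1 control array, and between 0 and 46 when 1 array was left out, 46 only without osnox2 control 3, and 0 with the replicate block. The labels do not say whether replicate numbers pair the samples. Deviations of same-numbered WT drought and control arrays correlated at 0.106, 0.014 and 0.039, and 6 of 12 arrays correlated best with an array of their own number. These values cannot decide on pairing, since the deviations hold the control arrays with high LHY and low PCL1. Of 247 values of the 12 named genes called against 3 controls under these alternatives, 126 kept the call, 121 lost it and 0 changed direction. Of 1653 values of the 88 named genes called against control replicates 2 and 3, 1090 kept the call, 563 lost it and 0 changed direction. All alternatives of this second comparison left out control replicate 1, so they could not show a change of direction that comes with that array. Cht2, for example, had the opposite sign against 3 controls. Where fewer arrays were fitted, fewer residual degrees of freedom were left. The cause of the other changes was not tested. Dim signals limit the fold changes, since MAS5 values near the bottom of the scale vary widely on the log2 scale.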
